A study of Mus musculus with 6 samples.

Results

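AMPA receptors carry most fast excitatory transmission in the hippocampus, and 8 genes of their pore-forming and auxiliary subunits were compared between mice of the daDREAM transgenic line L26 and wild type mice. The members were all probe sets annotated to exactly 1 of the symbols Gria1, Gria2, Gria3, Gria4, Cacng2, Cacng3, Cacng8 and Cnih2, which gave 17 of the 45037 probe sets tested. Cacng3 and Cnih2 had 1 probe set each, and the other members had 2 or 3. The L26 group was 3 adult male mice homozygous for the transgene, which encodes daDREAM, a dominant active form of the calcium-regulated transcriptional repressor DREAM. The other group was 3 wild type littermates. All animals had a mixed C57B6xCBA background, all were sampled without a stimulus, and each hippocampal RNA was hybridised to 1 Affymetrix Mouse Genome 430 2.0 array. L26 is a single transgenic line, and the promoter that drives its transgene is not given in the sources used here.

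AMPA receptors are tetramers of the subunits GluA1 to GluA4, the products of Gria1 to Gria4. A receptor that contains edited GluA2 passes little calcium, so the balance of GluA2 with the other subunits sets the calcium permeability of a synapse. The transmembrane AMPA receptor regulatory proteins (TARPs, here from Cacng2, Cacng3 and Cacng8) and the cornichon proteins (here from Cnih2) travel with the receptor, promote its delivery to the membrane and slow its closing. Splicing of the flip and flop exons and editing of the RNA also shape the receptor, and neither was measured by these arrays.

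DREAM binds DNA at the downstream regulatory element (DRE), whose core is GTCA, so promoter windows are shown first, for 2 of the 4 members whose transcripts differed. The RefSeq promoter table (GRCm38.p6) was used for 5 of the 8 members, and the 250 bases before the annotated start of Gria4 and Cnih2 are printed here 5′ to 3′ on the gene's strand. Gria4 lies at chr9:4796235-4796484 on the - strand and Cnih2 lies at chr19:5098522-5098771 on the - strand. Capitals would mark a GTCA or its reverse complement TGAC, and neither window has one.
Gria4: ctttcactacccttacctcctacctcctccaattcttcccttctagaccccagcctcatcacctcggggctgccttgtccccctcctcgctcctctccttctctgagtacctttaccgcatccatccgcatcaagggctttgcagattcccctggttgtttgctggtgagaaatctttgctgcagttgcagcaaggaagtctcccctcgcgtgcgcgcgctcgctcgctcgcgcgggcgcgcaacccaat
Cnih2: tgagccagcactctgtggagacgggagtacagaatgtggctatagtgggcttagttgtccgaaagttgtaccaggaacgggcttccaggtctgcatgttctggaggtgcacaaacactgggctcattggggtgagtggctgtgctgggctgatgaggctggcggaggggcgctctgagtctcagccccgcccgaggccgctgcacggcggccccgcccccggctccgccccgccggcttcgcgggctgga
Among the other members used, Cacng8 had 1 core and Gria2 and Cacng2 had 0. Over all 32851 promoter windows of that length, 80.2% held at least 1 core on either strand, with a median of 2. No match was found in the 5 windows for the CREB site TGACGTCA, which contains the core and is present in 1.55% of all windows, or for the AP-1 site TGANTCA, which overlaps the core where N is C or G and is present in 6.75%. These are matches of letters in 1 window per gene and not measured binding sites. Each window ends at the annotated start, so bases downstream of it were not searched. A count of 0 therefore does not show that a gene lacks the core.

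Expression values were log2 signals of probe sets, and array medians lay between 7.27 and 7.32. Arrays of the same group correlated at 0.997 to 0.998 and an L26 with a wild type array at 0.994 to 0.996. A probe set was called when its limma p-value, adjusted by Benjamini-Hochberg over all probe sets, was under 0.05. By that rule 3.92% of probe sets were called, 892 higher and 872 lower in L26, and with arrays centred on their medians the split was 717 higher and 1149 lower. Kcnip3, the endogenous gene of DREAM, had 10.15, 10.09 and 10.20 in L26 against 10.38, 10.36 and 10.21 in wild type on the brighter of its probe sets, 1418544_at (difference -0.17, adjusted p = 0.208). The dimmer 1449129_a_at had -0.32 (adjusted p = 0.0393). Neither probe set tests the labels, since the sources used here do not say which stretch of the transcript each covers. Among markers of the hippocampal fields, Wfs1 of CA1 lay at the 89.5th and Prox1 of the dentate gyrus at the 47.0th percentile of gene levels, and the dimmest, Iyd of CA3, at the 34.1st.

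By their called probe sets, Gria1 and Cnih2 were higher and Gria4 and Cacng3 lower in L26 hippocampus than in wild type. Gria1 1435239_at (limma adjusted p = 0.455) and Gria4 1421351_at (0.372) did not pass. Cnih2 was near the threshold (0.044) and missed it in 7 of 13 alternative runs. The 10 probe sets of Gria2, Gria3, Cacng2 and Cacng8 did not pass with limma (1 of them had an unadjusted p under 0.05). Of the 17 member probe sets, 5 were called, against 3.92% of all probe sets. Higher in L26 were 2 of them (1.98% of all) and lower were 3 (1.94% of all). The median difference of the 17 was -0.05 on the log2 scale, beside 0.01 over all probe sets, with 6 members above 0 and 11 below. The groups did not overlap for 6 of the 17, where 21.9% of all probe sets had groups that did not overlap. Taking each gene by its brightest probe set, 4 of 8 members were called against 5.19% of 18193 genes.

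**Figure D1:**
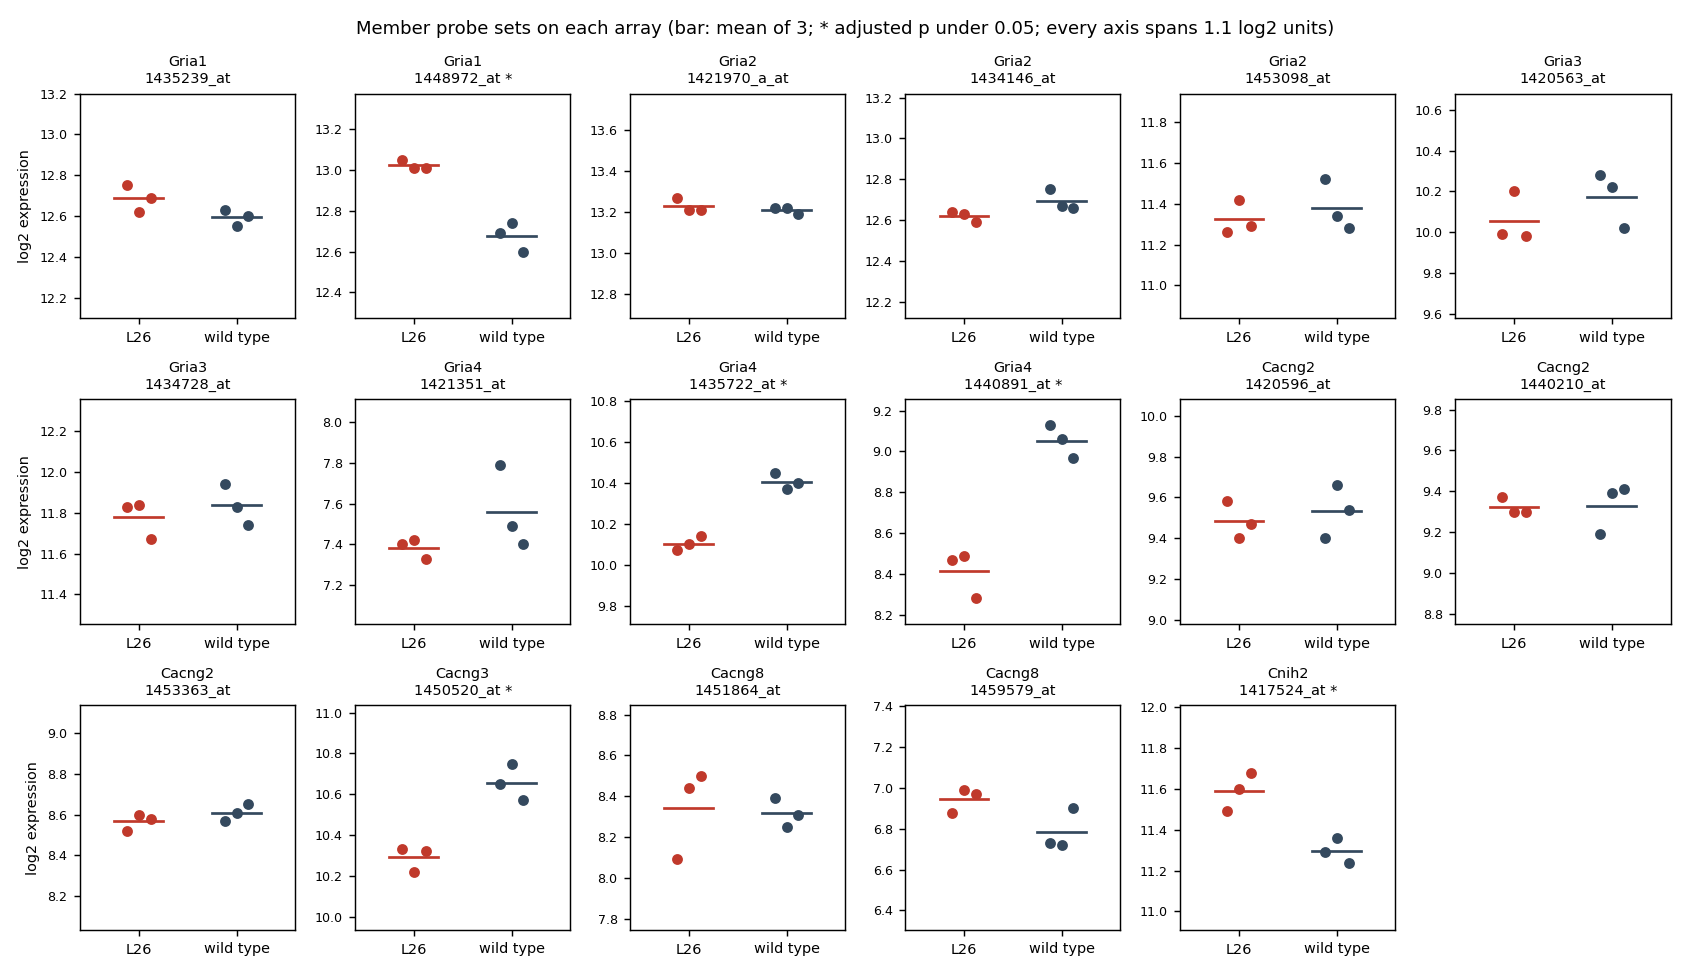
Log2 expression of each of the 17 member probe sets on the 3 L26 arrays (left of each panel) and the 3 wild type arrays (right), with a bar at each group's mean. The starred panels of Gria1, Gria4, Cacng3 and Cnih2 are those whose groups lie apart and passed the threshold.

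Gria1 encodes GluA1, the subunit whose insertion and phosphorylation follow synaptic plasticity in CA1. On probe set 1448972_at it had 13.05, 13.01 and 13.01 in L26, against 12.69, 12.74 and 12.60 in wild type. Every L26 array lay above every wild type array. The mean was 13.02 ± 0.023 in L26 and 12.68 ± 0.071 in wild type (SD, n = 3 each), a rise of 0.35 (SE 0.06) or 1.27-fold (limma adjusted p = 0.0119). The second Gria1 probe set, 1435239_at, had 12.75, 12.62 and 12.69 in L26 against 12.63, 12.55 and 12.60 in wild type. Its groups overlapped and its difference of 0.09 did not pass (95% interval -0.04 to 0.23, adjusted p = 0.455). Both probe sets were among the brightest of the array, at the 98.8th and 98.5th percentile of levels.

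The Gria1 probe sets therefore gave differences of unequal size. The within-array gap, 1448972_at minus 1435239_at, was 0.30, 0.39 and 0.32 in L26 and 0.06, 0.19 and 0.00 in wild type. These groups did not overlap. The exact permutation test over arrays gave p = 0.1 (two-sided), the smallest that 3 arrays against 3 allow, and 0.15 adjusted over 3 such contrasts. The 3 contrasts were those between a called and an uncalled probe set of 1 gene, a choice that favours a gap. Averaged over both of its probe sets, Gria1 was higher by 0.22 (SE 0.05, adjusted p = 0.0307 over genes, limma).

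Gria2 encodes GluA2, the subunit that keeps the channel nearly closed to calcium. Its brightest probe set, 1421970_a_at, had 13.27, 13.21 and 13.21 in L26, against 13.22, 13.22 and 13.19 in wild type. The values interleaved, and the difference of 0.02 had a 95% interval of -0.10 to 0.14 (adjusted p = 0.895). The other Gria2 probe sets had -0.07 (1434146_at, interval -0.20 to 0.05) and -0.06 (1453098_at, interval -0.23 to 0.12). On 1434146_at all L26 arrays, at 12.64, 12.63 and 12.59, lay below the wild type arrays, at 12.75, 12.67 and 12.66, by a margin that did not pass (adjusted p = 0.545).

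Gria3 encodes GluA3, which assembles mainly with GluA2. On 1434728_at it had 11.83, 11.84 and 11.67 in L26 against 11.94, 11.83 and 11.74 in wild type, with groups that overlapped. The difference was -0.06 (95% interval -0.22 to 0.11, adjusted p = 0.751), and on the dimmer 1420563_at it was -0.12 (interval -0.31 to 0.08, adjusted p = 0.539).

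Gria4 encodes GluA4, which in the adult hippocampus is found mostly in interneurons. On 1440891_at it had 8.47, 8.49 and 8.28 in L26, against 9.13, 9.06 and 8.97 in wild type. The groups were far apart, and the difference was the largest of all member probe sets. The mean was 8.41 ± 0.12 in L26 and 9.05 ± 0.080 in wild type (SD, n = 3 each), a difference of -0.64 (SE 0.07), which is 1.56-fold lower (limma adjusted p = 0.0017). On the brighter 1435722_at it had 10.07, 10.10 and 10.14 in L26 against 10.45, 10.37 and 10.40 in wild type. Here too every L26 array lay below every wild type array, with a difference of -0.30 (SE 0.05, 1.23-fold lower, adjusted p = 0.0167).

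The third Gria4 probe set, 1421351_at, is near the middle of all levels (52.9th percentile). It had 7.40, 7.42 and 7.33 in L26 and 7.79, 7.49 and 7.40 in wild type, so the groups overlapped. Its difference was -0.18 (95% interval -0.39 to 0.04, adjusted p = 0.372). The within-array gap 1440891_at minus 1421351_at averaged 1.03 ± 0.069 in L26 and 1.49 ± 0.13 in wild type (SD, n = 3 each), a difference of -0.46 (exact permutation p = 0.1, the smallest possible, and 0.15 adjusted over the 3 such contrasts). For 1435722_at minus 1421351_at that difference was -0.13 (exact permutation p = 0.4).

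Cacng3 encodes a TARP of forebrain neurons, closely related to stargazin. Its probe set 1450520_at had 10.33, 10.22 and 10.32 in L26, against 10.65, 10.75 and 10.57 in wild type. All L26 arrays lay below all wild type arrays. The mean was 10.29 ± 0.061 in L26 and 10.66 ± 0.090 in wild type (SD, n = 3 each), a difference of -0.37 (SE 0.07) or 1.29-fold lower (limma adjusted p = 0.0159).

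Cacng2 encodes stargazin, the TARP first found through the stargazer mouse. Its brightest probe set, 1420596_at, had 9.58, 9.40 and 9.47 in L26 against 9.40, 9.66 and 9.54 in wild type, with no separation of the groups. The 3 Cacng2 probe sets had differences of -0.05, -0.01 and -0.04, none of which passed. Their 95% intervals together ran from -0.23 to 0.15.

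Cacng8 encodes the TARP that is most characteristic of the hippocampus. On 1451864_at it had 8.09, 8.44 and 8.50 in L26 against 8.39, 8.25 and 8.31 in wild type. L26 replicate 1 was the lowest array and the other L26 arrays the highest, and the difference was 0.03 (95% interval -0.20 to 0.26, adjusted p = 0.929). On the dimmer 1459579_at it had 6.88, 6.99 and 6.97 in L26 and 6.73, 6.72 and 6.90 in wild type, a difference of 0.16 (adjusted p = 0.241, unadjusted p = 0.0382).

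Cnih2 encodes cornichon homolog 2, an auxiliary subunit that carries receptors out of the endoplasmic reticulum and slows their deactivation in pyramidal cells. Its probe set 1417524_at had 11.49, 11.60 and 11.68 in L26, against 11.29, 11.36 and 11.24 in wild type. Every L26 array was above every wild type array. The mean was 11.59 ± 0.095 in L26 and 11.30 ± 0.060 in wild type (SD, n = 3 each), a rise of 0.29 (SE 0.07) or 1.23-fold (limma adjusted p = 0.044). With arrays centred on their medians the rise was 0.26 and no longer passed (adjusted p = 0.0588).

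**Figure D2:**
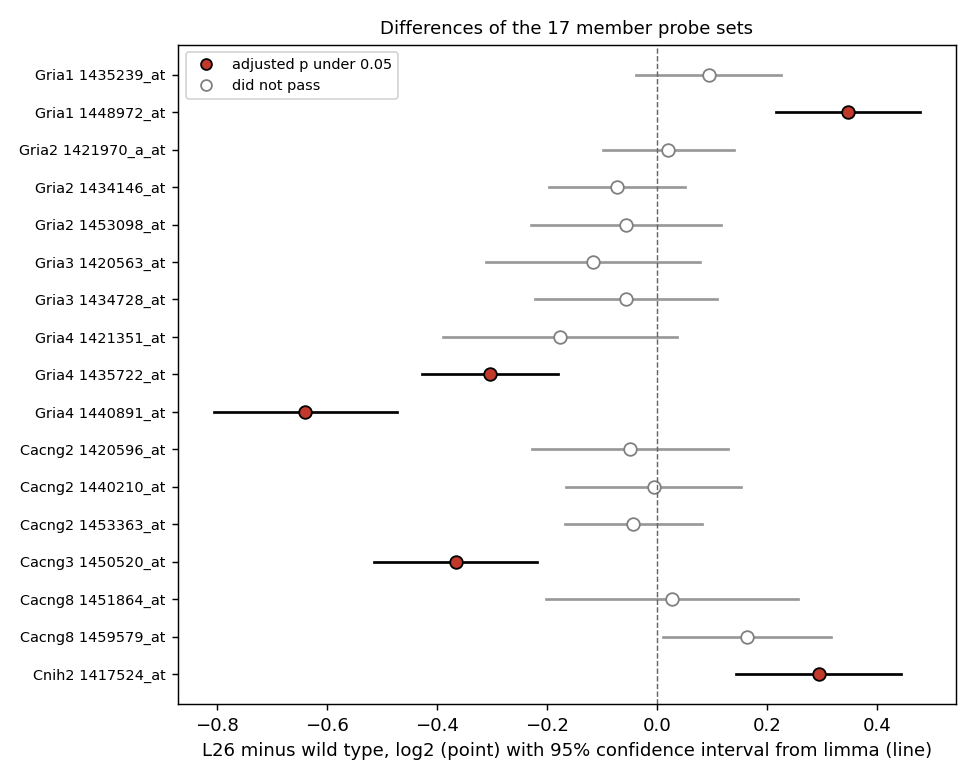
Difference L26 minus wild type on the log2 scale for the 17 member probe sets (points), with the 95% interval from limma (lines); filled points passed the threshold. The filled points of Gria1 (0.35) and Cnih2 (0.29) lie to the right of 0, and those of Gria4 (-0.64 and -0.30) and Cacng3 (-0.37) to the left.

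Whether genes of 1 family changed unequally was compared within arrays, on the brightest probe set of each gene. Relative to Gria2, Gria1 was 0.33 higher in L26 than in wild type and Gria4 was 0.32 lower (difference -0.32). The Gria1 contrast used 1448972_at only. The nearly as bright 1435239_at, whose own difference of 0.09 did not pass, was not set against Gria2. Relative to Cacng2 and to Cacng8, Cacng3 had differences of -0.32 and -0.39. In each of these 4 contrasts the L26 arrays lay apart from the wild type arrays, and each reached the smallest exact permutation p of 0.1 (adjusted p = 0.1 over the 4). For Cacng3 minus Cacng8 the groups were barely apart, with L26 replicate 1 at 2.24 and the lowest wild type value at 2.26. With 1 array left out its exact permutation p reached 0.2. The contrasts share probe sets and were chosen after the single values had been seen.

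The calls of single probe sets rested on few arrays. Gria4 1440891_at passed with any 1 array left out, with adjusted p from 0.0055 to 0.0081. Gria1 1448972_at passed in all of these fits except the one without L26 replicate 3 (adjusted p = 0.0523). Cacng3 was lost without L26 replicate 2 (adjusted p = 0.0687), L26 replicate 3 (0.0584) or wild type replicate 2 (0.0548). Gria4 1435722_at passed without wild type replicate 2 (adjusted p = 0.0407) and missed without any other array (0.051 to 0.0649). Cnih2 passed without L26 replicate 1 (adjusted p = 0.0373) and missed without any other (0.0698 to 0.163). All 5 kept their direction in these fits.

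**Figure D3:**
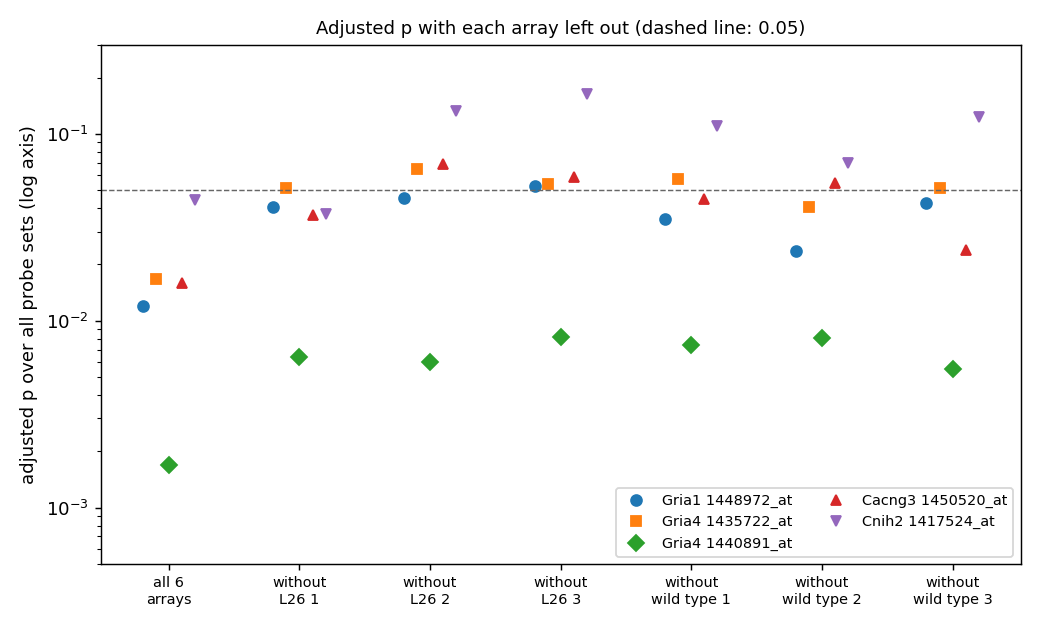
Adjusted p over all probe sets (log axis) of the 5 called member probe sets with all 6 arrays and with each array left out; the dashed line is the threshold of 0.05. The Gria4 1440891_at points stay below the line throughout, while those of Cnih2 lie above it with any 1 array left out other than L26 replicate 1.

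Other genes of the AMPA receptor were taken in 3 lists, each gene by its brightest probe set with p-values adjusted over all genes. Of 21 measured auxiliary and assembly genes, 3 rose, 2 fell and 16 did not pass, where 2.63% of all genes rose and 2.57% fell. Frrs1l, which acts in assembling receptors in the endoplasmic reticulum, had 12.47, 12.47 and 12.41 in L26 against 12.08, 12.21 and 12.09 in wild type, a rise of 0.32 (SE 0.06, limma adjusted p = 0.0138). Shisa6, an auxiliary subunit that holds receptors at the synapse, rose by 0.37 (SE 0.08, adjusted p = 0.0349), and its second probe set rose by 0.34. The second probe set of Frrs1l, 1436340_at, had 0.21 and did not pass over probe sets (adjusted p = 0.0562). The TARP gene Cacng4 rose by 0.26 (SE 0.06, adjusted p = 0.0494), and with 1 array left out it passed only without L26 replicate 1 (adjusted p = 0.0237, otherwise 0.106 to 0.162). Adjusted over all probe sets neither Cacng4 probe set passed, 1450975_at with 0.26 (adjusted p = 0.0633) and 1455230_at with 0.08 and groups that overlapped (adjusted p = 0.574). Frrs1l missed without L26 replicate 2 (adjusted p = 0.0624), and Shisa6 without L26 replicate 1 or 2 or wild type replicate 2 or 3 (0.0963 to 0.114).

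Gsg1l and Vwc2l were the auxiliary genes that fell. Gsg1l, an auxiliary subunit that slows recovery of the receptor from desensitization, had 8.26, 8.22 and 8.09 in L26 against 8.71, 8.83 and 8.65 in wild type, a difference of -0.54 (SE 0.07, limma adjusted p = 0.00337). Vwc2l, which encodes a secreted protein with von Willebrand factor C domains, had 7.02, 7.52 and 7.73 in L26 against 8.07, 8.04 and 8.28 in wild type. It fell by 0.71 on the log2 scale (SE 0.16, adjusted p = 0.0372), and missed without L26 replicate 2 or any 1 wild type array (0.0674 to 0.108). The brightest genes of the list that did not pass were the noelin gene Olfm1 (difference 0.04), the cornichon gene Cnih1 (0.01), the phosphoinositide phosphatase gene Sacm1l (-0.01) and the carnitine palmitoyltransferase gene Cpt1c (-0.07). The median difference of the list was 0.01, as over all genes (0.01).

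Of 31 measured scaffold and trafficking genes, 1 fell, 0 rose and 30 did not pass with limma. At an unadjusted p under 0.05 there were 2 higher and 5 lower, the one that passed included. The one that fell was Arc, an activity-induced gene whose product drives internalisation of AMPA receptors. It averaged 9.06 in L26 and 10.41 in wild type, a difference of -1.35 (SE 0.17, limma adjusted p = 0.00345). Among the brightest of the rest, Nsf, an ATPase that binds GluA2, had a difference of 0.07, the SNARE gene Snap47 -0.08, the kinase gene Camk2a 0.10 and the clathrin adaptor gene Ap2m1 0.02. Of 7 editing and clustering genes limma called 0, with 1 higher and 1 lower at an unadjusted p under 0.05. There Nptx1, a pentraxin that clusters receptors from outside the cell, had 0.08, the adhesion genes Lrrtm1 and Lrrtm2 had 0.08 and -0.14, and the adenosine deaminase gene Adar had 0.16.

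In these lists 6 genes that did not pass by their brightest probe set had a dimmer probe set that was called, and they are named after their values were seen. Over all probe sets 3.92% were called, and the share of all genes of this kind is not given here. The count is therefore not read as a feature of these lists. They are Camk2a (2 of 6 probe sets higher), Nedd4l (2 of 6 higher), Prkca (1 of 3 higher), Epb41l1 (1 of 3 lower), Usp8 (1 of 2 lower) and Lrrtm4 (1 of 2 lower). The widest disagreement was in Epb41l1, a cytoskeletal linker that binds GluA1, with -0.98 on 1421090_at beside 0.10 on 1434575_at. Camk2a, the alpha subunit gene of the kinase that phosphorylates GluA1, had 0.90 on 1443876_at.

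**Figure D4:**
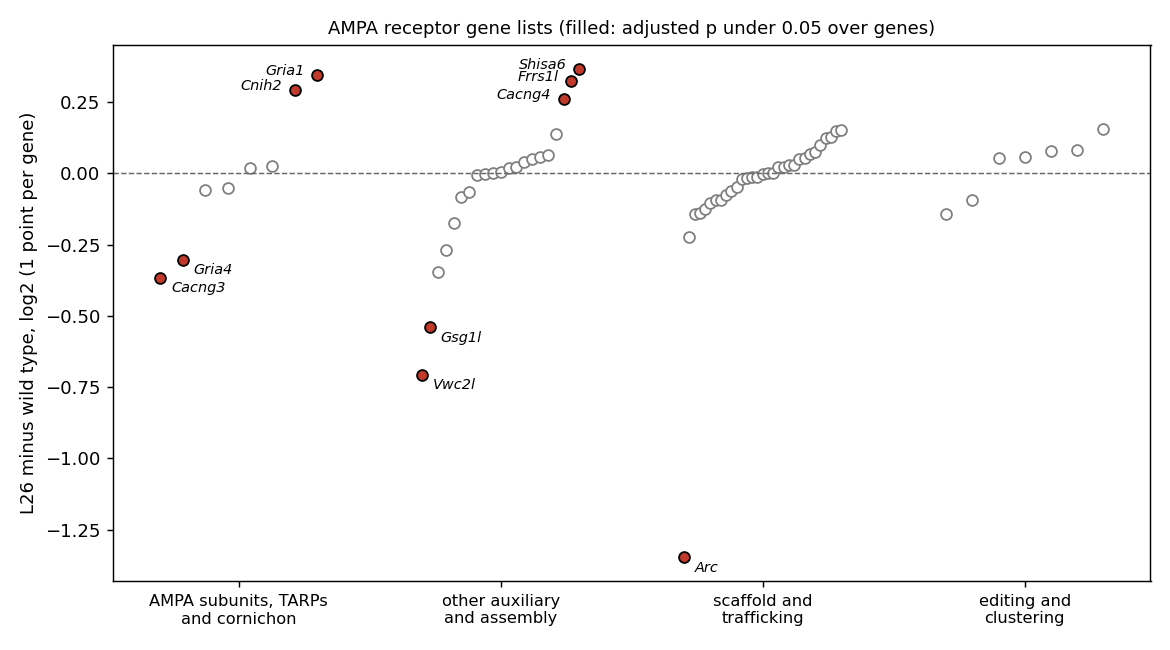
Difference L26 minus wild type on the log2 scale, 1 point per gene by its brightest probe set, for the 8 members and the 3 further lists; filled points passed the threshold over all genes. Of the members 2 lie above and 2 below 0 among the filled points, and Arc (-1.35) is the lowest gene shown.

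Levels of cell type and region markers moved on the same arrays. In bulk tissue, fewer cells of a type and less RNA per cell cannot be told apart. Over all genes 2.63% were called higher and 2.57% lower, the shares beside which the marker counts here and in the next paragraph stand. Beside Gria4, which is enriched in interneurons, 2 of 10 interneuron markers fell, Pvalb (difference -0.30, limma adjusted p = 0.0491) and Reln (difference -0.37, adjusted p = 0.0245), and 8 missed the threshold. Their mean over the 10 ran from 10.58 to 10.61 on L26 arrays and from 10.65 to 10.68 on wild type arrays. The difference was -0.07 (SE 0.01, from the spread of the array means and not from limma), with Gad1 at -0.17 and Sst at 0.20. Of 6 cortical and subicular markers 2 fell, Tshz2 (-0.60) and Lamp5 (-0.51). Rorb had -0.22 and was not called, while Fezf2, Cux2 and Fn1 were slightly higher in L26 (0.06, 0.04 and 0.08, not called). The mean of the 6 was 9.48 to 9.54 in L26 and 9.69 to 9.72 in wild type.

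Beside Gria1 and Cnih2, limma called 0 of 5 pyramidal cell markers (3 higher at an unadjusted p under 0.05), with Emx1 at -0.14 and Slc17a7 at -0.02. List means were 10.93 to 11.00 in L26 and 10.77 to 10.92 in wild type, the nearest arrays being at 10.928 and 10.924. Of the field markers, 1 of 3 for CA1, 2 of 3 for CA3 and 2 of 5 for the dentate gyrus rose, and their means were higher by 0.15, 0.33 and 0.23. Within each of these lists single markers differed in sign, and those named here were picked after their values were seen. For CA1 Fibcd1 had 0.45 and Wfs1 -0.10, for CA3 the dim Iyd had 0.90 and Trps1 -0.20, and in the dentate list Dsp had -0.17. The oligodendrocyte mean was 11.84 to 12.13 in L26 and 11.55 to 11.64 in wild type, with 9 of 10 markers higher. For oligodendrocyte precursors, cells that carry AMPA receptors, 1 of 3 markers rose, with a mean of 9.27 to 9.54 in L26 and 9.10 to 9.18 in wild type. Vascular markers rose in 5 of 7 cases, with a list mean of 9.47 to 9.54 in L26 and 8.96 to 9.03 in wild type. Of 8 astrocyte markers 0 were called (2 higher at an unadjusted p under 0.05, mean difference 0.07), and of 7 microglia markers 2 rose and 1 fell (mean difference 0.02). The part of these markers in the member differences was not tested.

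**Figure D5:**
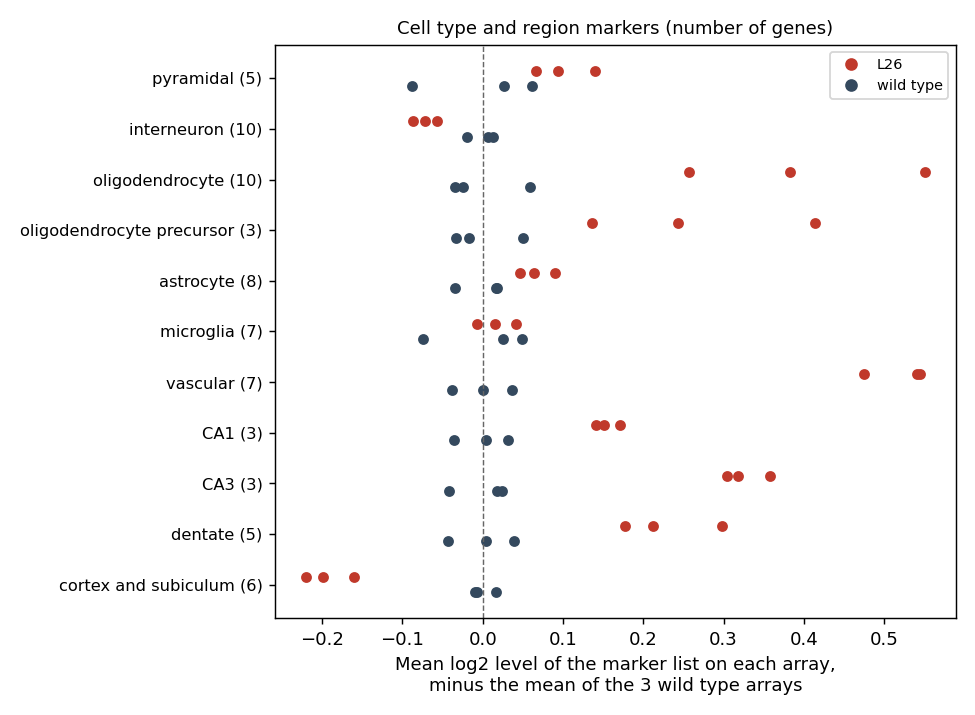
Mean log2 level of each marker list on every array, minus the mean of the 3 wild type arrays; L26 arrays are drawn above wild type arrays in each row, and the number of genes is in brackets. The L26 points lie apart from the wild type points in every list but microglia, though only just for pyramidal markers. They lie on the left for cortical and subicular (-0.19) and interneuron markers (-0.07) and on the right for the rest, by the most for vascular markers (0.52).

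The genes with the most similar pattern over the 6 arrays were found by the root mean square distance between centred profiles. For Gria1 they were Slc25a51 (0.029 log2 units) and Gas1 (0.032), and for Cacng3 they were Elmo1 (0.032) and Osbpl10 (0.033). For Gria4 1440891_at they were Cplx2 (0.062) and Cd200 (0.073). For Cnih2 they were Sox10 (0.021), a transcription factor of the oligodendrocyte lineage, and Akt2 (0.024) (whose probe set, ending in _s_at, may also detect related transcripts). The distances were ranked over 18192 genes and describe these 6 arrays.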

How the data were processed

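Hippocampal RNA of 6 mice, 4 µg of total RNA each per the labels' protocols, was measured on 1 array per animal. The deposited values are log2 expression, and the submitters' processing notes name RMA and the affy package without a version. RMA values carry no detection call, and differences of dim or near-saturated probe sets can come out too small.

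Of 45101 probe sets, 64 controls were left out and 45037 tested without a filter on level. GEO's platform annotation gave 34945 of them 1 symbol. It has 17 for the members, none of them shared with another symbol. The values were fitted with limma 3.58.1 in R 4.3.3 (L26 minus wild type, two-sided, Benjamini-Hochberg over all probe sets, or over 18193 genes by their brightest probe set, threshold 0.05). SE and 95% intervals come from that fit, and the number of arrays limits their precision. Within-array contrasts were compared by exact permutation. The code was tested on simulated data. The promoter windows of Gria1, Gria3 and Cacng3 are not reported here.

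All member probe sets are described. Of the other lists, every called gene and the 4 brightest others are named, and for each called member the 2 nearest patterns. Markers are given as counts and list means, with single ones named after their values were seen. The members and lists were chosen with earlier results of these data known. Alternatives were a replicate block, each array left out, repeated quantile normalization, median centring, array weights, a trended and robust prior, leaving out the 40% of probe sets with the lowest mean or those named _x_at and _s_at, and averaging a gene's probe sets.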

Additional observations from a re-analysis of the deposited data

How the results depend on the processing

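With each array left out in turn, the number of called member probe sets was 1 to 4 in place of 5, that of member genes 1 to 4 in place of 4, and that of other AMPA receptor genes 2 to 5 in place of 6. Over all probe sets these fits called 356 to 787 higher and 454 to 661 lower, with 1 array fewer in each fit. Of the member probe sets 1 was called without L26 replicate 3, 2 without L26 replicate 2, 3 without any 1 wild type array and 4 without L26 replicate 1. The labels do not say whether the replicate numbers pair the animals. Deviations of same-numbered arrays from their group means correlated at -0.04, -0.07 and 0.15, and those of differently numbered arrays at -0.15 to 0.19. With 3 arrays per group these values cannot decide whether a pairing exists. With the replicate block 3 member probe sets were called (Gria1 1448972_at, Gria4 1440891_at and Cacng3), while Gria4 1435722_at (adjusted p = 0.0503) and Cnih2 (adjusted p = 0.0818) were not, nor were Cacng4 (0.0821) and Shisa6 (0.0518) over genes. Apart from the leave-one-out fits, the block and the loss of Cnih2 under median centring, the 5 member calls were kept under each alternative run. Cacng4 was also lost with median centring (adjusted p = 0.0621) and without _x_at and _s_at probe sets (0.0502), and with a gene's probe sets averaged its difference was 0.17 (0.0909). The count of called other AMPA receptor genes, 6 in the main run, was 9 with that averaging and 9 with the trended and robust prior. With the replicate block it was 4. With a gene's probe sets averaged, an alternative for the members that was chosen after seeing the data, Gria1, Gria4, Cacng3 and Cnih2 were called. None of the 5 called member probe sets and none of the 6 called genes of the other lists changed direction in any alternative run on them. Some member probe sets that were not called changed sign. Gria2 1421970_a_at went from 0.02 to -0.01 with median centring, and Cacng8 1451864_at from 0.03 to -0.05 without L26 replicate 3. Named genes of the other lists that were not called, and the markers, were not followed singly through the alternatives. Dim members such as Cacng8 1459579_at (42.6th percentile of levels) are limited by signal over background, which these values do not record.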
